A study of Mus musculus with 3 samples.

Results

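Cytosolic ribosomal protein genes encode the protein building blocks of the ribosome that translates nuclear-encoded messenger RNA. Members were chosen by symbol alone, as names of the form Rpl or Rps followed by a number and an optional suffix, together with Rplp0, Rplp1, Rplp2 and Rpsa. The rule took 84 of the 32285 genes listed, and 83 of them reached a mean of at least 10 CPM (the unique molecular identifiers, UMIs, of a gene scaled to a common library total) over the 3 libraries. All 84 are annotated as protein coding. The remaining member, Rpl3l, lay below that level.

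The cells were E14, an established line of mouse embryonic stem cells (129/Ola background) kept in serum with leukemia inhibitory factor. From 24 h after seeding they received 250 µg/mL cycloheximide in 0.007% ethanol for 3 h or 6 h, and control cells received ethanol alone for 6 h. Cells were then detached, frozen, thawed and tagged with 10x Genomics 3′ v3 chemistry, with 1 library per group. Every difference below therefore compares single libraries and has no replicate check, the 3 h and 6 h comparisons share the control library, and the control was not matched in duration to the 3 h treatment. Intervals are 95% intervals that cover counting error only.

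Cycloheximide blocks the elongation step of translation by binding the large ribosomal subunit. Ribosomal proteins are made in equimolar amounts from abundant, stable messages, are imported into the nucleus and are assembled with ribosomal RNA in the nucleolus. Most of these messages begin with a 5′ terminal oligopyrimidine (TOP) tract, a C followed by a run of pyrimidines at the very start of transcription, through which their translation is tied to growth signalling. Many ribosomal protein genes also carry small nucleolar RNAs in their introns.

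RefSeq start regions (GRCm38.p6) are shown for members at both ends of the range of ratios described below, so that their start tracts can be compared directly. Each window holds the 15 bases before and the 15 bases from the annotated start, 5′ to 3′ on the coding strand, and capitals mark the longest uninterrupted run of C and T that overlaps bases -5 to +5.
Rpl35 (chr2:39005117-39005146, minus strand): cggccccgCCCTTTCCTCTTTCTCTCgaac
Rps27 (chr3:90213634-90213663, minus strand): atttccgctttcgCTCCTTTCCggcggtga
Rpl38 (chr11:114668565-114668594, plus strand): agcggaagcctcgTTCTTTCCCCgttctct
Rpl15 (chr14:18270972-18271001, minus strand): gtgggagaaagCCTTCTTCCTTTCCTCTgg
Rpl7a (chr2:26910792-26910821, plus strand): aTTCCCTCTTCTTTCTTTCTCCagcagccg
Rps15 (chr10:80292416-80292445, plus strand): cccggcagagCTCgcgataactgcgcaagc
Rpl7l1 (chr17:46782642-46782671, minus strand): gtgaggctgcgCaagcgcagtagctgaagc
The first 3 genes were among the members with the lowest ratios after cycloheximide, Rpl15 lay near the middle, and the last 3 were at or above their control level after 6 h. The runs measured 18 bases in Rpl35, 9 in Rps27, 10 in Rpl38, 17 in Rpl15 and 21 in Rpl7a, against 3 in Rps15 and 1 in Rpl7l1. Long runs at RefSeq's start stood both in a gene with low ratios (Rpl35) and in a gene with a ratio near 0 (Rpl7a). That start lay 493 bases from the GENCODE start in Rpl35 and 405 in Rpl15, and 3 to 56 bases from it in the other 5 genes, and which start these cells used was not measured.

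Barcodes with at least 15000 UMIs and 1 to 20% mitochondrial UMIs were taken as cells, which gave 2187 in the control, 1739 after 3 h and 2554 after 6 h, with median depths of 43160, 51726 and 46200 UMIs. The limit of 1% left out 62 control barcodes, 1 after 3 h and 8 after 6 h, and no barcode exceeded 20%. At most 3 cell barcodes were shared between any pair of libraries. All 10 embryonic stem cell markers were above 10 CPM, with sums of 7260 CPM in the control, 8205 after 3 h and 7318 after 6 h. Dppa5a alone held 4771, 5327 and 5475 CPM of these sums. Against the control, log2 ratios of 1 marker were below -0.25 and of 5 above 0.25 after 3 h (11.7% and 35.2% of all genes tested). After 6 h, 5 were below -0.25 and 0 above 0.25 (19.5% and 43.2%). Of the 8 fibroblast markers none reached 10 CPM, and their sums were 2.93, 2.36 and 1.99 CPM. Endoderm markers summed to 8.42 to 11.3 CPM, trophoblast markers to 13.9, 22.6 and 27.9 CPM, and mesoderm and neural markers to 18.1, 26.4 and 25.7 CPM. Mitochondrially encoded genes took 4.57%, 3.51% and 2.94% of UMIs.

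Ribosomal protein messages made up 27.0% of all UMIs in control cells, 24.7% after 3 h and 24.2% after 6 h. As a log2 ratio of the summed CPM this was -0.13 after 3 h and -0.16 after 6 h, and 6 h against 3 h was -0.032. The mean number of member UMIs per cell was 13752 in the control, 15188 after 3 h and 13286 after 6 h. The share was therefore lower in both treated libraries, while the number per cell was higher after 3 h and lower after 6 h than in the control. The total UMIs per cell were higher in both treated libraries (means of 50959, 61439 and 54942), and CPM cannot tell fewer ribosomal protein messages from more of other messages.

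Ratios of single members were tightly grouped. At 3 h the median log2 ratio over the 83 members was -0.10 (interquartile range 0.15, SD 0.19), and after 6 h it was -0.11 (interquartile range 0.20, SD 0.25). Over all 7608 genes with at least 10 CPM the median was 0.11 after 3 h (SD 0.47) and 0.17 after 6 h (SD 0.66). The 80 other genes between 834 and 5200 CPM, not matched to members within that range, had medians of -0.039 and -0.056. Their interquartile ranges were 0.24 and 0.35 and their SDs 0.57 and 0.76. Ribosomal protein genes were thus less dispersed than other genes of this level range in both comparisons, by either measure. No test of that difference was possible with 1 library per group.

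Set against the median gene, which does not depend on how the libraries are scaled, 80 of 83 members lay below it after 3 h and 81 of 83 after 6 h, with the member median 0.22 and 0.28 log2 units under it. By CPM itself, 72 members were below their control level after 3 h and 67 after 6 h, against 35.9% of all genes at each time. Ratios within 0.25 of 0 were found for 67 members after 3 h (80.7%, against 53.2% of all genes) and for 61 after 6 h (73.5%, against 37.3%). Much of this was shared by other abundant genes. Of the 80 other genes between 834 and 5200 CPM, 49 were below their control level after 3 h and 46 after 6 h. Their upper quartiles, 0.069 and 0.076, lay under the median gene (0.11 and 0.17). Their 17th and 91st percentiles after 3 h were -0.24 and 0.22, and their 29th and 86th after 6 h were -0.247 and 0.21.

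A ratio below -0.25 was found for 14 members after 3 h (16.9%), where 11.7% of all genes tested were below -0.25, and for 20 members after 6 h (24.1%), where the share over all genes was 19.5%. Above 0.25 there were 2 members after 3 h and 2 after 6 h (2.41% each), against 35.2% and 43.2% of all genes. Below -0.5 there were 3 members after 3 h, against 3.21% of all genes, and 8 after 6 h, against 9.69%, and above 0.5 there were 2 after 6 h, against 26.6%. No member was below -1 or above 1 in either comparison, where 0.513% and 4.32% of all genes stood after 3 h and 2.41% and 8.65% after 6 h. The downward counts were thus near the background of all genes, while the count above 0.25 lay under it. Ratios above 0.25 were also less frequent among the 80 other genes between 834 and 5200 CPM. The 91st percentile of those genes was 0.22 after 3 h and their 86th percentile 0.21 after 6 h.

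These counts depend on the scaling. With TMM factors, which are set by the bulk of the genes, 50 members were below -0.25 after 3 h and 70 after 6 h (26.2% and 39.3% of all genes). By mean UMIs per cell 3 members were below -0.25 and 14 above 0.25 after 3 h (2.96% and 66.9% of all genes), and the member median turned to 0.17 after 3 h and -0.0057 after 6 h. The median gene stood at 0.11 and 0.17 by CPM, -0.063 and -0.12 with TMM factors, and 0.38 and 0.27 by UMIs per cell after 3 h and 6 h. Directions below are by CPM unless another scaling is named.

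**Figure D1:**
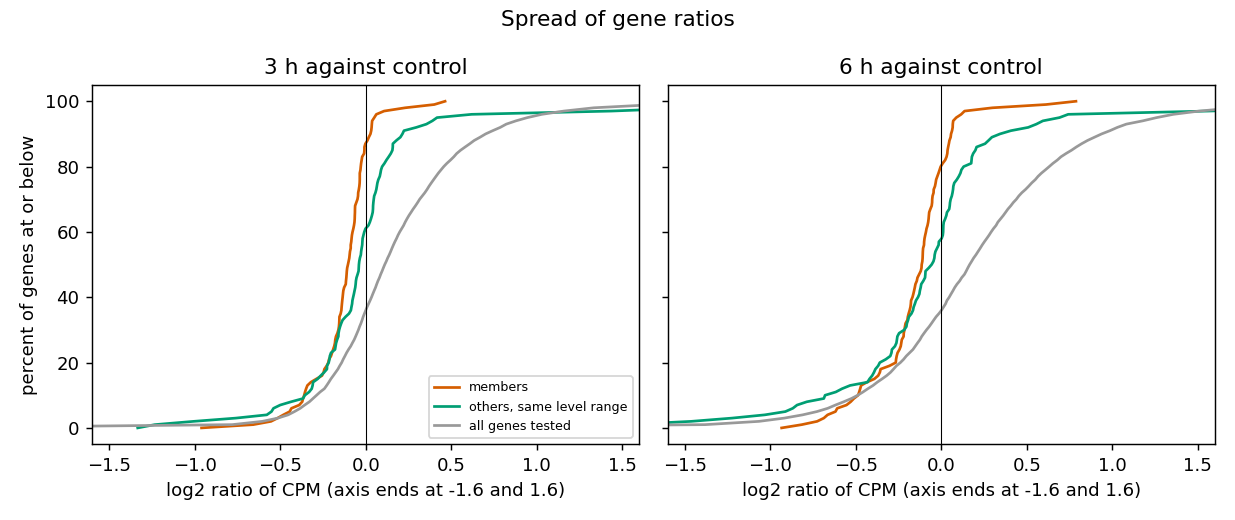
Cumulative percent of genes (vertical axis) at or below each log2 ratio of CPM (horizontal axis) after 3 h and 6 h, for 83 members, the other genes in the level range of members and all genes tested. The member curve is the steepest in both panels, with SDs of 0.19 and 0.25, and lies to the left of the curve of all genes, with medians of -0.10 and -0.11 against 0.11 and 0.17.

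Rpl13, a large-subunit protein, was the most abundant member in every library at 9999.8 CPM in the control, 9475 after 3 h and 9238 after 6 h (log2 ratios -0.078 after 3 h and -0.11 after 6 h). Also among the 10 most abundant in the control were Rps20 at 6201 CPM, Rps18 at 5738, Rpl32 at 5426 and Rps27a at 5413. Rpl19, Rps24, Rpl23 and Rps2 followed with 5273, 5135, 5114 and 4844 CPM. Because 3′ tagging counts each captured message once, these CPM levels are not scaled by gene length. The 10 most abundant members of each library, which were not all the same genes, together held 21.8% of member UMIs in the control, 22.4% after 3 h and 22.5% after 6 h, and 70 of 83 members were within 2-fold of the member median in the control. For the 10 most abundant in the control, ratios after 6 h ran from -0.25 for Rps24 to 0.031 for Rps18, so the most abundant members included none of those with low or high outlying ratios.

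Among proteins of the small subunit, 31 members had a median of -0.11 after 3 h and -0.086 after 6 h. Of these 31, 23 were below 0 after 6 h, as were 67 of all 83 members and 2734 of the 7608 genes tested. Rpsa, also known as the laminin receptor, was measured at 4735 CPM in the control, 4711 after 3 h and 4533 after 6 h (log2 -0.0073 after 3 h and -0.063 after 6 h). Rps27a, made as a fusion with ubiquitin, stood at 5413 CPM in the control, 5007 after 3 h and 5219.9 after 6 h (-0.11 after 3 h and -0.052 after 6 h). Both stayed within 0.25 of the control. Rps6, the small-subunit protein phosphorylated by S6 kinase, had 2096 CPM in the control, 1973 after 3 h and 1995 after 6 h, ratios of -0.087 after 3 h and -0.072 after 6 h. Rps27 was the low outlier of this subunit and is described further below.

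For the large subunit, 46 members had medians of -0.11 and -0.14, and 42 were below 0 after 6 h (67 of all 83 members and 2734 of 7608 genes tested). Rpl5 and Rpl11 form, with 5S ribosomal RNA, the particle that binds Mdm2 when ribosome assembly is disturbed. Rpl5 was present at 1531 CPM in the control, 1567 after 3 h and 1672 after 6 h, ratios of 0.034 and 0.13 (interval 0.12 to 0.14 after 6 h). Rpl11 had 2711 CPM in the control, 2431 after 3 h and 2339.7 after 6 h, with -0.16 and -0.21. By CPM the 2 partners lay on opposite sides of the control at both times. With TMM factors Rpl5 too was below it, at -0.14 and -0.16, and by mean UMIs per cell both genes were above it after 3 h. Rpl3, which lies next to the peptidyl transferase centre, had 2980.5 CPM in the control, 2901 after 3 h and 2948 after 6 h (-0.039 after 3 h and -0.016 after 6 h). Rpl22, an RNA-binding protein that general translation does not need, had 2357 CPM in the control, 2194 after 3 h and 2176 after 6 h (-0.10 after 3 h and -0.12 after 6 h). Rpl10a (-0.062 and 0.055) and Rpl12 (0.036 and -0.0079) were close to their control levels.

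The P-stalk, the flexible arm of the large subunit that recruits elongation factors, is built from Rplp0, Rplp1 and Rplp2. Rplp0 was at 4212 CPM in the control, 3718 after 3 h and 3581 after 6 h, Rplp1 at 4831, 4734 and 4538 CPM, and Rplp2 at 3654, 3335 and 3312 CPM. All 3 were below the control in both treated libraries, with 6 h ratios of -0.23, -0.090 and -0.14. Proteins that join the subunits late, in the cytoplasm (Rpl10, Rpl24, Rps10, Rps26 and the stalk proteins), had a median of -0.14 after 3 h and -0.20 after 6 h, and 7 of 7 were below 0 in each. Below 0 were also 72 of all 83 members after 3 h and 67 after 6 h, and 2732 and 2734 of the 7608 genes tested. Rpl24 had the lowest 6 h ratio of them (-0.24) and Rplp1 the highest. Rpl10, Rps10 and Rps26 had -0.20, -0.16 and -0.20. The stalk proteins and late joining proteins therefore sat inside the range of the other members.

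Low outliers, defined as members more than 3 scaled median absolute deviations below the member median, were the same 6 genes at both times. They were Rpl29, Rpl35, Rps27, Rpl36al, Rpl37 and Rpl39, and 5 of them encode large-subunit proteins.

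Rpl29 (ENSMUSG00000048758, chr9:106429454-106431568 on GRCm38), a small surface protein of the large subunit, had 100.6 CPM in the control, 51.7 after 3 h and 52.7 after 6 h. Its level was 0.514 times the control after 3 h and 0.523 times after 6 h, with log2 ratios of -0.96 (interval -1.01 to -0.91) and -0.93 (-0.98 to -0.89), and 6 h against 3 h was 0.026. It ranked 81 of the 83 members by abundance in the control. Of the 60-base stretches in the last 400 bases of its transcripts, 54.8% also occurred in other annotated genes, 36 in number. Its count may therefore be affected by reads common to these genes.

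Rpl35 (ENSMUSG00000062997, chr2:39001580-39005624), which sits by the exit of the nascent peptide tunnel, had 1986 CPM in the control, 1318 after 3 h and 1148 after 6 h. Its ratios were -0.59 (-0.60 to -0.58) and -0.79 (-0.80 to -0.78). Rps27 (ENSMUSG00000090733, chr3:90212522-90213651), a zinc-binding protein of the small subunit, was at 2961 CPM in the control, 2101 after 3 h and 1835 after 6 h. Here the ratios were -0.50 (-0.50 to -0.49) and -0.69 (-0.70 to -0.68). Unlike Rpl29, both genes were lower after 6 h than after 3 h, with the lowest member ratios of that comparison (-0.20 and -0.20).

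Rpl36al (chr12:69182731-69184083) had 1284 CPM in the control, 888 after 3 h and 800.2 after 6 h, ratios of -0.53 after 3 h and -0.68 after 6 h. Rpl37 (chr15:5116645-5119140), a zinc-binding large-subunit protein, had 4278 CPM in the control, 3141 after 3 h and 2784 after 6 h (-0.45 after 3 h and -0.62 after 6 h). Rpl39 (chrX:37082520-37085402), one of the smallest ribosomal proteins and a lining of the exit tunnel, had 3315 CPM in the control, 2455 after 3 h and 2176 after 6 h (-0.43 after 3 h and -0.61 after 6 h). All 3 followed the order control, 3 h, 6 h from high to low. The next lowest were Rpl38 with 2839.9 CPM in the control, 2193 after 3 h and 1959 after 6 h (-0.37 after 3 h and -0.54 after 6 h) and Rpl36 with 3748 CPM in the control, 2901 after 3 h and 2605 after 6 h (-0.37 after 3 h and -0.53 after 6 h), just inside the outlier limit. Shared 3′ sequence covered 0% of Rpl37 and 98.6% of Rps27, so low ratios were found both with and without it.

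High outliers were Rpl7l1 and Rpl10l at both times, and both belong to the paralogs described next. In 6 h against 3 h only 1 member, Rpl7l1, was above 0.25, where 18.4% of all genes stood, and no member was below -0.25, against 12.5% of all genes. With TMM factors 10 members were below -0.25 and 0 above 0.25 (22.04% and 9.15% of all genes), and by mean UMIs per cell 20 and 0 (28.1% and 6.24%). By CPM no member was beyond 0.5 in either direction, where 3.68% of all genes were below -0.5 and 3.23% above 0.5. Members spread less in that comparison (SD 0.090, against 0.29 for all genes), and 68 of 83 lay below the median gene. The largest differences upward from 3 h to 6 h were those of Rpl7l1 (0.32), Rpl10l (0.19) and Rps15 (0.15), and the largest downward were those of Rpl35, Rps27 and Rpl39 (-0.17).

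**Figure D2:**
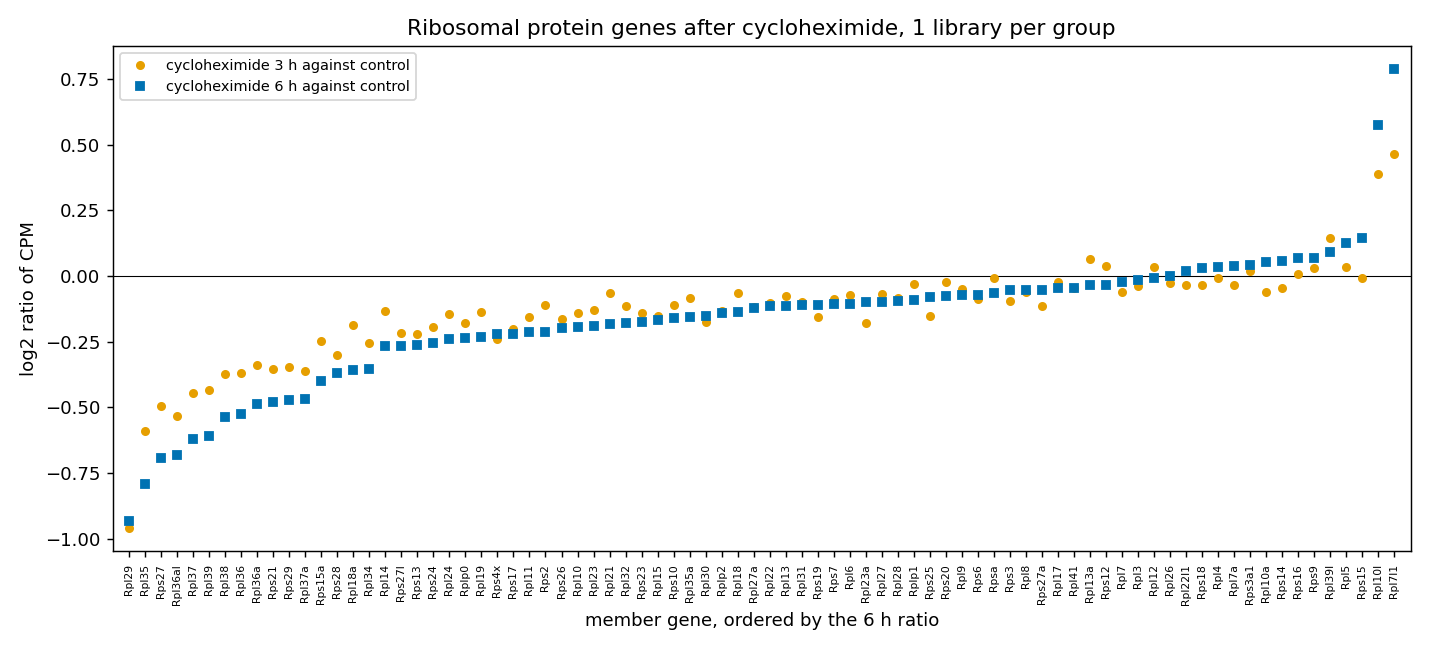
Log2 ratio of CPM against the control (vertical axis) for 80 of the members ordered by their 6 h ratio (horizontal axis), with circles for 3 h and squares for 6 h. Most points lie close to 0, 6 genes from Rpl29 to Rpl39 form the low end at -0.93 to -0.61, and Rpl10l and Rpl7l1 stand at 0.57 and 0.79 after 6 h.

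Rpl7l1 (ENSMUSG00000063888, chr17:46773907-46782672), a relative of Rpl7 known from ribosome assembly in the nucleolus, had 240.2 CPM in the control, 332 after 3 h and 415 after 6 h. Its ratios of 0.46 (0.44 to 0.49) and 0.79 (0.77 to 0.81) were the highest of the members at each time. Rpl7 itself was at 2614 CPM in the control, 2503 after 3 h and 2571 after 6 h (-0.063 after 3 h and -0.024 after 6 h). The paralog was thus higher in both treated libraries while Rpl7 stayed close to the control. Rpl7l1 was also above the control with TMM factors (0.29 after 3 h and 0.50 after 6 h) and by mean UMIs per cell (0.73 and 0.90).

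Rpl10l (ENSMUSG00000060499, chr12:66283379-66284401), a retrogene copy of Rpl10 known for its role in male meiosis, was scarce at 11.6 CPM in the control, 15.2 after 3 h and 17.3 after 6 h. It rested on 1294, 1623 and 2426 UMIs and had ratios of 0.39 (0.28 to 0.49) and 0.57 (0.48 to 0.67). Rpl10 was lower than its control at both times, at 1867 CPM in the control, 1693 after 3 h and 1631 after 6 h. Rpl3l, the muscle form of Rpl3, rested on 124, 149 and 267 UMIs, that is 1.11, 1.39 and 1.90 CPM, with a 6 h ratio of 0.77 (0.46 to 1.09) and a 3 h interval that includes 0 (-0.028 to 0.68).

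Rpl39l (ENSMUSG00000039209, chr16:10170226-10174911), the counterpart of Rpl39 best known from male germ cells, had 50.4 CPM in the control, 55.7 after 3 h and 53.7 after 6 h. Its ratios of 0.14 (0.090 to 0.20) and 0.090 (0.040 to 0.14) lay above 0 by CPM (below 0 with TMM factors), where those of Rpl39 were -0.43 after 3 h and -0.61 after 6 h. Rpl22l1 had 819 CPM in the control, 800.1 after 3 h and 831 after 6 h (-0.034 after 3 h and 0.021 after 6 h), next to -0.10 after 3 h and -0.12 after 6 h for Rpl22. For Rps27l, which is also a p53 target, the values were 1480.1 CPM in the control, 1273 after 3 h and 1232 after 6 h (-0.22 after 3 h and -0.27 after 6 h), a smaller difference than for Rps27. Rpl36al and Rpl36a were both lower, at -0.68 and -0.49 after 6 h. Among the 6 paralogs tested the median was 0.054 after 3 h and 0.055 after 6 h, with ranges of -0.53 to 0.46 and -0.68 to 0.79. At each time 2 were above 0.25, the only 2 of all members, where 35.2% and 43.2% of all genes stood. Below -0.25 there was 1 after 3 h and 2 after 6 h, against 11.7% and 19.5% of all genes. How reads common to related copies were counted is not given in the sources used here.

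**Figure D3:**
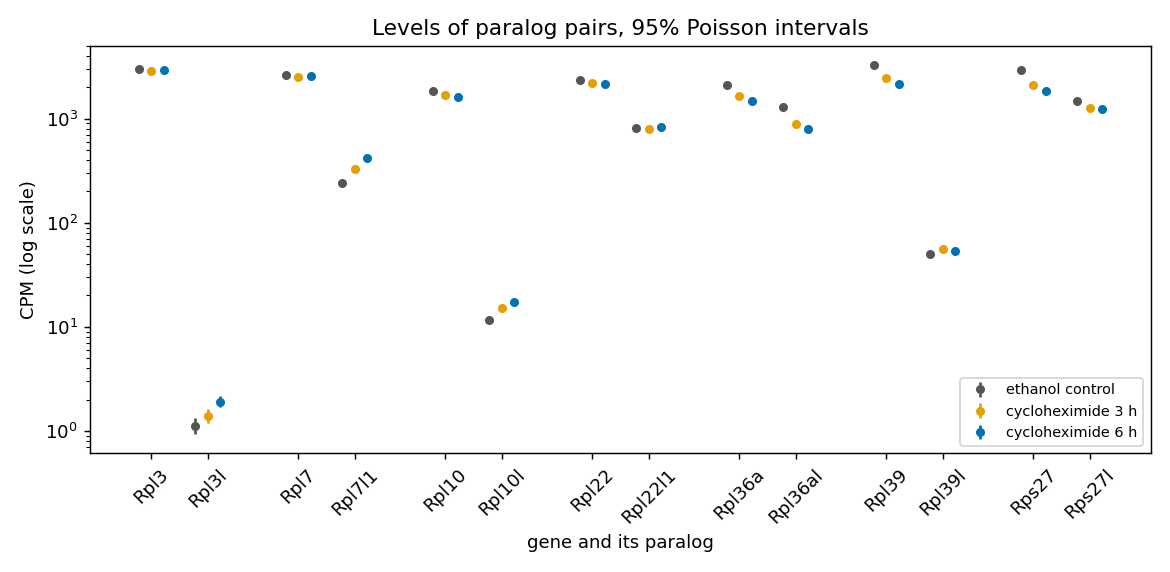
CPM on a log axis (vertical) for 7 genes and their paralogs (horizontal) in the control, 3 h and 6 h libraries, with 95% Poisson intervals that are mostly smaller than the points. Rpl3l, Rpl7l1 and Rpl10l step upward from control to 6 h, while Rpl10, Rpl36a, Rpl36al, Rpl39 and Rps27 step downward.

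Apart from the paralogs, the highest 6 h ratios were those of Rps15 and Rpl5. Rps15 (chr10:80292453-80294114), a small-subunit protein needed for export of the precursor subunit, had 1363 CPM in the control, 1356 after 3 h and 1507 after 6 h. At 3 h it did not differ from the control beyond counting error (-0.0074, interval -0.018 to 0.0030) and after 6 h it was 0.14 (0.13 to 0.15), which turned to -0.14 with TMM factors. Rps9 and Rps16 were among those that followed, with 0.068 and 0.067 after 6 h. At 3 h the highest after the paralogs was Rpl13a (0.066). None of these reached 0.25, and with TMM factors all were below 0.

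Most of the low members had short coding sequences, a property examined after the ratios had been seen. Split into 4 groups of equal size by coding length, the 21 members of 75 to 357 nt had a median of -0.30 after 3 h and -0.37 after 6 h. Those of 366 to 453 nt had -0.11 and -0.11, those of 456 to 612 nt had -0.076 and -0.10, and those of 624 to 1257 nt had -0.063 and -0.054. Of the members below -0.25, 12 of 14 after 3 h and 13 of 20 after 6 h were in the shortest group, which holds 21 of the 83. The difference between the shortest and longest groups was -0.24 after 3 h, -0.32 after 6 h and -0.12 for 6 h against 3 h.

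Besides Rps27, Rpl37, Rpl39, Rpl36al, Rpl38, Rpl36 and Rpl36a, the shortest group held Rps21 (249 nt, -0.35 after 3 h and -0.48 after 6 h), Rps29 (168 nt, -0.35 after 3 h and -0.47 after 6 h), Rpl37a (276 nt, -0.36 after 3 h and -0.47 after 6 h) and Rps28 (207 nt, -0.30 after 3 h and -0.37 after 6 h), named here after their values were seen. Exceptions to the ordering were of both kinds. Rpl41 has the shortest coding sequence of all (75 nt) and stood at 4463 CPM in the control, 4327 after 3 h and 4329 after 6 h (-0.045 after 3 h and -0.044 after 6 h). Rps20 and Rplp1 are short as well and had 6 h ratios of -0.075 and -0.090. Within the shortest group, all members of 330 to 357 nt other than Rpl34 (351 nt, -0.35) had 6 h ratios from -0.20 to -0.075, so its low ratios were mostly those of genes up to 318 nt. Rpl29 (480 nt) and Rpl35 (369 nt) are longer and had the lowest ratios.

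Over the 83 members, Spearman's rank coefficient between coding length and log2 ratio was 0.46 after 3 h and 0.45 after 6 h, with Pearson's r of 0.37 and 0.41 on log2 length. Without the 6 paralogs (77 genes) r was 0.41 and 0.46. These points share the same libraries and the same control, and no p is given. Over 7411 other protein-coding genes of all lengths the rank coefficient was -0.089 after 3 h and -0.19 after 6 h, of the opposite sign. Up to 1500 nt, however, the shortest of these other genes were also the lowest. In bins ending at 300, 450, 600, 900 and 1500 nt, their medians after 3 h were -0.0066, 0.10, 0.11, 0.13 and 0.16. After 6 h they were 0.099, 0.23, 0.24, 0.26 and 0.25, and lower again in longer genes (0.12 up to 3000 nt and -0.099 beyond). Other protein-coding genes of the same short length and at least 500 CPM (44 genes) had medians of -0.062 and -0.066, against -0.30 and -0.37 for the short members. The 44 genes were not matched to the short members in level above that limit. Over members, the rank coefficient with the number of exons was 0.32 and 0.28, with control CPM -0.026 and -0.11, and with GC content 0.013 and -0.033. That with the share of 3′ sequence found in other genes was -0.15 and -0.13. Over the 7411 other protein-coding genes the coefficient with control CPM was -0.34 and -0.33, so their ratios fell with level.

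**Figure D4:**
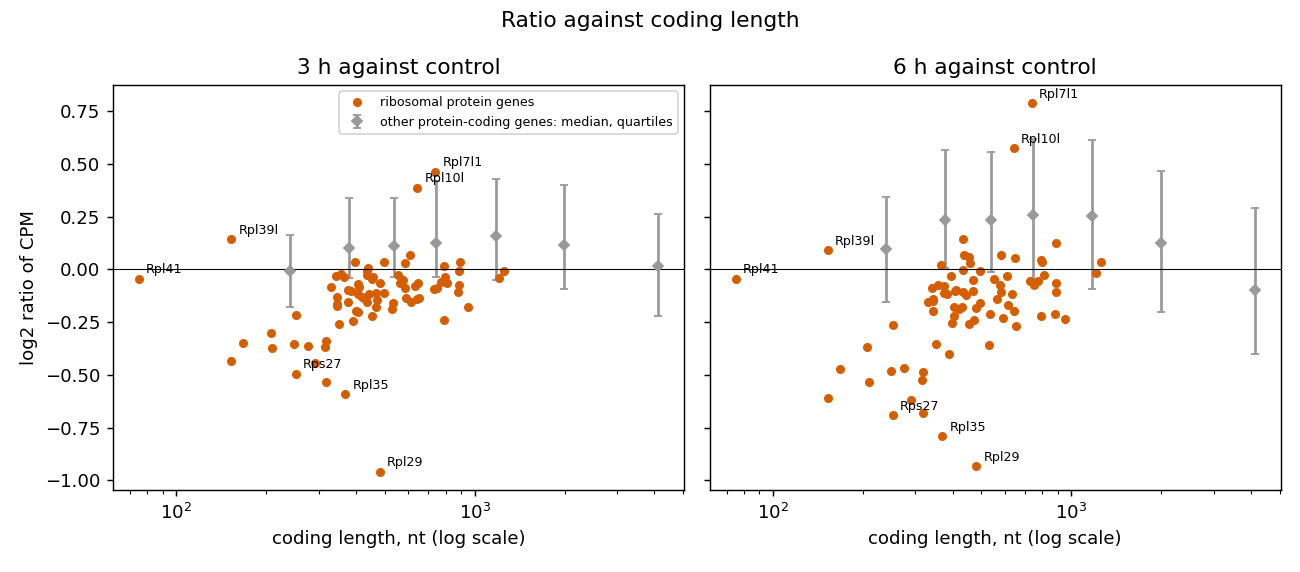
Log2 ratio of CPM against the control (vertical axis) against coding length in nt (horizontal log axis) after 3 h and 6 h, with circles for 80 of the members and diamonds with bars for the median and quartiles of other protein-coding genes in length bins. Apart from Rpl29 and Rpl35, the lowest member ratios are those of genes with up to 318 nt, of which Rpl41 and Rpl39l lie higher than most. Members of 330 to 357 nt other than Rpl34 lie at -0.20 to -0.075 after 6 h.

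Barcodes with 10 to 100 UMIs, which are taken to hold free RNA and no cell, gave a separate reading of the same libraries. Members made up 21.1%, 18.8% and 19.9% of UMIs there. From the shortest to the longest of the 4 length groups, median ratios in free RNA were -0.34, -0.15, -0.12 and -0.072 after 3 h, and -0.30, -0.030, 0.0076 and -0.048 after 6 h. The shortest group was the lowest in both, while the other groups did not keep their order after 6 h. For 6 h against 3 h the shortest group had 0.080 and the longest 0.054 in free RNA, without the lower value of the shortest group seen in cells. The part of free RNA in the ratios of the cells was not tested beyond subtraction of 10% free RNA, after which the difference between shortest and longest groups after 6 h was still -0.32.

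Cell by cell, the lower share was spread over the population. The median cell held 27.0% member UMIs in the control (interquartile range 25.4 to 28.5%), 24.8% after 3 h (23.2 to 26.3%) and 24.3% after 6 h (22.9 to 25.6%). Of the cells, 58.8% after 3 h and 71.8% after 6 h were below the lower quartile of the control. Cells with under 15% member UMIs numbered 2 in the control, 13 after 3 h and 13 after 6 h, and cells above 35% numbered 6, 0 and 0. Distributions thus overlapped but were displaced as a whole.

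The make-up of the member UMIs separated the libraries further. The shortest group contributed a median of 25.2% of the member UMIs of a cell in the control, 23.2% after 3 h and 22.4% after 6 h. Below the lower quartile of the control lay 84.1% of cells after 3 h and 93.8% after 6 h, and below its 5th percentile 67.2% and 87.0%. From the shallowest to the deepest of 4 depth classes of cells this median ran from 25.5% to 24.99% in the control, 23.7% to 23.0% after 3 h and 23.0% to 22.1% after 6 h. Each of these differences was smaller than that between the control and either treated library. After 6 h it was larger than the difference between the medians of the 2 treated libraries. Because the 21 genes were grouped after their ratios had been seen, these values describe how cells share the difference and do not support it independently.

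**Figure D5:**
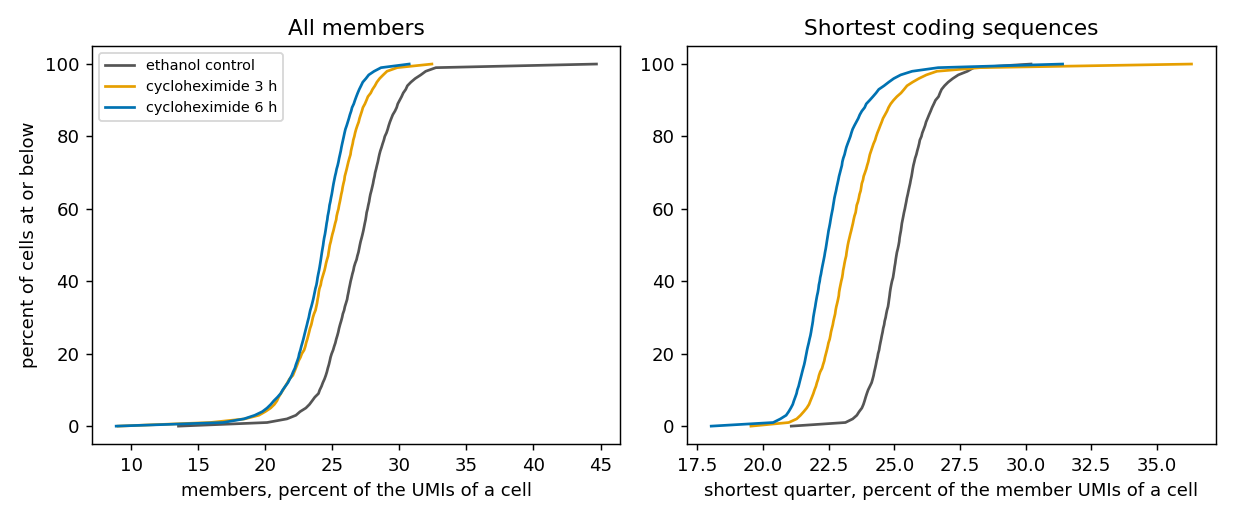
Cumulative percent of cells (vertical axis) by the percent of the UMIs of a cell that came from members (left, horizontal axis) and by the percent of member UMIs that came from the 21 shortest members (right), for each library. Both treated curves lie left of the control, with medians of 27.0%, 24.8% and 24.3% on the left and 25.2%, 23.2% and 22.4% on the right.

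Cell-to-cell variability was measured as the excess squared coefficient of variation (variance minus mean, over the squared mean) after thinning each cell to 15000 UMIs. Its median over members was 0.0171 in the control, 0.0225 after 3 h and 0.0188 after 6 h, and over other genes in the level range of members 0.0445, 0.0367 and 0.0386. That range was set in each library, so the other genes were 47, 85 and 93 in number and their medians are read only within a library. Of the members measurable, 78 of 82 in the control, 69 of 83 after 3 h and 74 of 83 after 6 h were below the median of those other genes. Most ribosomal protein messages therefore varied less between cells than these genes did. Rpl22l1 (0.0988, 0.0756 and 0.0670), Rpl23 (0.0678, 0.0769 and 0.0736) and Rpl19 (0.0598, 0.0687 and 0.0673) were above most members in each library.

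Rpl39l had the highest value of the members measurable in each library, at 2.36, 2.33 and 2.55. In thinned cells a UMI of Rpl39l was found in 34.4%, 36.9% and 34.7% of cells (52.1%, 56.2% and 51.6% unthinned), with up to 12 UMIs in a control cell. Cells with 5 or more Rpl39l UMIs after thinning numbered 76, 74 and 105, although the mean was 0.762, 0.884 and 0.819 UMIs per cell. No cell type lacking Rpl39l was present for comparison, and free RNA held 39.7, 67.8 and 49.99 CPM of it.

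For Rpl7l1 the higher level was found across cells, since the share of thinned cells with 5 or more UMIs was 29.4% in the control, 55.1% after 3 h and 71.8% after 6 h. Rpl29 was found with a UMI in 77.3%, 50.7% and 55.4% of thinned cells (97.2%, 89.9% and 89.1% unthinned). Rpl10l, at 14.2%, 18.5% and 21.8% (36.0%, 46.1% and 48.2% unthinned), was seen in more cells of the treated libraries. Neither gene had an excess variability near that of Rpl39l, and Rpl10l came closest with 0.725 after 3 h and 0.738 after 6 h.

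RefSeq start windows were available for 64 of the members (76 windows). A pyrimidine run of 5 or more bases, in C and T only and read on the coding strand, overlapped the annotated start in 37 of 76 windows (48.7%), against 31.4% of the 32851 windows of all genes. Of the 76 windows, 43 had their 20 compared bases found as written in an annotated transcript. Members with such a run had a median ratio of -0.11 after 3 h and -0.14 after 6 h (35 genes), those with shorter runs -0.12 and -0.11 (28 genes), and those with no entry -0.079 and -0.088 (20 genes). The medians differed by less than the interquartile range of any of these groups, as the runs printed above for Rpl35 and Rpl7a already show for single genes. A run at an annotated start is only a match of letters, and true start sites were not measured.

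Members with a small nucleolar RNA inside the annotated gene (30 genes) had medians of -0.075 after 3 h and -0.093 after 6 h, and the 53 without one -0.13 and -0.16. Both groups overlapped over most of their range. Of the members below -0.25, 12 of 14 after 3 h and 16 of 20 after 6 h were among those without, which make up 53 of the 83. This split was not separated from that by coding length.

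Of ribosomal genes whose symbols the rule does not cover, Fau and Rack1 are described. Fau, whose product yields the small-subunit protein eS30, had 3122 CPM in the control, 2759.7 after 3 h and 2739.7 after 6 h (-0.18 after 3 h and -0.19 after 6 h). Rack1, a scaffold on the small subunit, stayed at its control level with 2349 CPM in the control, 2318 after 3 h and 2367 after 6 h (-0.019 after 3 h and 0.011 after 6 h).

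Other messages known for TOP tracts, mostly translation factors, were taken as a list of 18 genes that includes both. Their median was -0.060 after 3 h and -0.10 after 6 h, next to -0.10 and -0.11 for the members. Of the 18, 2 were below -0.25 and 1 above 0.25 after 3 h, and 4 were below and 2 above after 6 h. The highest after 6 h were Hnrnpa1, a splicing factor (467 CPM in the control, 628 after 3 h and 666 after 6 h, ratio 0.51), and Eif3e, a subunit of an initiation factor (0.33). Among the lowest was Nap1l1, a histone chaperone (717 CPM in the control, 529 after 3 h and 441 after 6 h, ratio -0.70).

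Reads from processed copies are a known source of uncertainty for these genes. Of the 84 members, 46 shared more than 50% of the 60-base stretches in their last 400 transcript bases with another annotated gene, 17 shared none, and the median share was 54.5%. Annotated copies outside the rule had counts of their own, and the 3 most abundant were named after their values were seen. Rps27rt, a retrogene of Rps27, was listed at 59.8, 64.1 and 69.5 CPM, Rpl9-ps6 at 50.4, 57.3 and 65.7 CPM and Rpl10-ps3 at 38.3, 42.2 and 48.0 CPM. By CPM these were all higher after cycloheximide, where Rps27 and Rpl10 were lower, and how reads common to copies were counted is not given in the sources used here. The median gene was higher as well, at 0.11 after 3 h and 0.17 after 6 h. Beside it, log2 ratios were 0.099 and 0.22 for Rps27rt, 0.19 and 0.38 for Rpl9-ps6 and 0.14 and 0.33 for Rpl10-ps3.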

How the data were processed

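The deposited matrices give unnormalized UMI counts for each barcode and gene. Their headers name Cell Ranger 4 (Cell Ranger 4.0.0 and mm10 per the submitters' processing notes). The annotation and the treatment of shared reads are not given in the sources used here. Each matrix listed 6794880 barcodes, so no cells had been called. All values below were computed here from these counts. Libraries held 127601369, 115188502 and 150987519 UMIs (control, 3 h, 6 h), of which 111447486, 106842407 and 140321458 were in barcodes with at least 15000 UMIs and 1 to 20% mitochondrial UMIs. Counts were summed over these cells and scaled to CPM. Log2 ratios used a prior of 0.5 counts, and genes averaging 10 CPM or more were tabulated. The number of UMIs of a gene sets its counting interval, which is narrow for all members but Rpl10l and Rpl3l. No doublets were removed.

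With 1 library per group no test was made. Intervals are exact Poisson intervals for CPM and exact conditional binomial intervals for ratios at 95%. PCR, culture and library variation are not covered. Gene positions and coding lengths are those of GENCODE M21 on GRCm38, matched by identifier for 32235 of 32285 genes and all 84 members. Start windows are from RefSeq GRCm38.p6. Ratios and variability were tested on simulated data. Members and lists were chosen with earlier results of these data known. Members were named as the 10 most abundant, the 8 highest and 8 lowest at 6 h, the 5 highest and 5 lowest at 3 h, outliers beyond 3 scaled median absolute deviations, the 3 members differing most in each direction from 3 h to 6 h, members under 10 CPM, and fixed lists of single proteins, paralogs, late joining proteins and ribosomal genes outside the rule. Some genes that this rule takes are not reported here. Coding length was added after the values had been seen.

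Alternatives were TMM factors (edgeR 4.0.16, R 4.3.3), UMIs averaged per cell, centring on the median gene, members or mitochondrial genes left out of the total, CPM floors of 50 or none, a prior of 5, cells of at least 10000 or 25000 UMIs, other mitochondrial limits, removal of cells above 2 times the median depth, subtraction of 10% free RNA (barcodes of 10 to 100 UMIs), and thinning to 25000 UMIs. Python 3.11.15 with numpy 2.4.6, scipy 1.17.1, pandas 2.3.3 and matplotlib 3.10.9 was used.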

Additional observations from a re-analysis of the deposited data

Results flagged for a closer look

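For 8 members the ratio to the control had one sign at 3 h and the other at 6 h. Both ratios of each gene share the control library, the difference was not tested, and each is small beside the SD of 0.25 over members at 6 h. Above the control at 3 h and below it at 6 h were Rpl13a (0.066 and -0.033, 6 h minus 3 h -0.10), Rps12 (0.037 and -0.032, difference -0.069) and Rpl12 (0.036 and -0.0079, difference -0.044). Below the control at 3 h and above it at 6 h were Rpl10a (-0.062 and 0.055, difference 0.12) and Rps14 (-0.044 and 0.058, difference 0.10). The same order held for Rpl7a (difference 0.073), Rps18 (0.065) and Rpl22l1 (0.055), with ratios between -0.036 and 0.037. With TMM factors all 8 were below the control at both times, and by mean UMIs per cell all 8 were above it at both times.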

How the results depend on the processing

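No paired analysis was possible because each group has 1 library, and for the same reason no replicate could be left out. Of the recomputed main values, 198 kept their direction and stayed close, 26 moved and 1 reversed. TMM factors, UMIs per cell, centring and changes of the total shift all ratios of a comparison by the same amount. The SDs of member ratios and the differences between length groups could not change under these, so part of the 198 was fixed in advance. With TMM factors the member medians were -0.28 at 3 h, -0.40 at 6 h and -0.15 for 6 h against 3 h. Below -0.25 were 50, 70 and 10 members, and 0 were above 0.25 for 6 h against 3 h. By mean UMIs per cell the medians were 0.17 (reversed), -0.0057 and -0.20, with 3 members below -0.25 and 14 above 0.25 at 3 h, and 20 below and 0 above for 6 h against 3 h. Rpl34 at 3 h turned from -0.26 to 0.013 by that scaling. Centred on the median gene the medians were -0.22, -0.28 and -0.078, with 32 members below -0.25 at 3 h and 51 at 6 h, against 20.1% and 30.2% of all genes. Leaving members out of the total gave a 3 h median of -0.15. A floor of 50 CPM left 1 member above 0.25 at 3 h and 1 at 6 h, because Rpl10l was no longer tabulated. At the main floor of 10 CPM, 35.2% and 43.2% of all genes stood there. With no floor 2 members were above 0.25 for 6 h against 3 h, because Rpl3l entered (18.4% of all genes at the main floor). Thinned to 25000 UMIs, the median excess squared CV of members was 0.0151, 0.0185 and 0.0162. Among members depth limits Rpl3l and Rpl10l most, and variation between cultures was not measured.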
